A study of Mus musculus with 31 samples.

Results

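Whole-brain RNA of mice killed 4 h after an intravenous injection of physiological serum was compared with that of mice killed 18 h after the same injection. The comparison rests on 4 of the 31 arrays of the series, 2 at each time, chosen by their labelled treatment and hour and not by any measured value. The study set oleic acid, a model of acute lung injury, against physiological serum at 6 times. None of the 4 mice received oleic acid, so the comparison addresses how the brain transcriptome differs between these hours after injection and anaesthesia alone.

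All 31 mice were female C57BL/6 animals aged 6 weeks, anaesthetised with 5% xylazine and 20% ketamine and injected with 200 µl through the tail vein. Oleic acid mice received 1.2 µl per g of body weight. The serum groups held 3, 3, 2, 2, 2 and 2 mice at 1, 1.5, 3, 4, 18 and 24 h, and the oleic acid groups 3, 3, 3, 3, 2 and 3. Each array carried Cy3-labelled cRNA made from 200 ng of total RNA. The labels give 1 mouse brain per array and name no pool, no uninjected mouse and no clock hour of injection. Hours since injection, hours since anaesthesia and hour of day therefore cannot be told apart, and the p-values measure the spread between the mice as labelled.

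Glucocorticoids, released from the adrenal cortex by stress and in a daily rhythm, enter the brain and act through a nuclear receptor that binds DNA and switches on genes such as the kinase Sgk1 and the co-chaperone Fkbp5. The circadian clock is a feedback loop in which CLOCK and BMAL1 (Arntl) drive the Per, Cry and Rev-erb (Nr1d1) repressors through E-box sequences, together with output genes such as Dbp and Ciart. Body temperature, which anaesthesia lowers, acts on cold-inducible RNA-binding proteins and on heat-shock genes. The unfolded protein response of the endoplasmic reticulum (ER) raises chaperones through ER stress elements (ERSE).

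Levels are log2 processed intensities minus the 75th percentile of the same array, so that 0 is the brightness of that percentile. Differences are 4 h minus 18 h with limma's moderated standard error (SE), and a gene passed the test at a Benjamini-Hochberg adjusted p under 0.05. In bulk tissue, fewer cells of a type and less RNA per cell cannot be told apart. Of the spots on the 4 arrays, between 59.6% and 62.7% were well above background. The arrays correlated at 0.987 within the 4 h group, 0.99 within the 18 h group and 0.983 to 0.99 between them, so the libraries as a whole did not separate by time.

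The tissue matched its label: the neuronal genes Snap25 and Rbfox3 lay between 6.02 and 6.46 and between 5.30 and 5.70. However, 2 of the 4 arrays stood apart in cerebellar transcripts. Gabra6, a GABA-A receptor subunit of cerebellar granule cells, was 1.89 and -7.31 at 4 h and -2.85 and 2.01 at 18 h. It was not well above background in the second 4 h mouse, and the Purkinje-cell gene Pcp2 followed it at 5.83, -1.29, 1.87 and 5.57. Of the 16 cerebellar markers measured, 0 had groups that did not overlap, against 38.9% of all genes tested. With 1 array low in these transcripts in each group, that count does not bear on time. Transcripts of liver also differed: the mean level of 21 liver genes was -2.86 and -4.42 at 4 h against -1.47 and -1.80 at 18 h, and 19 of 21 were lower at 4 h with 0 past the test. The part of either marker list in the results below was not tested, and the main counts are given with and without the second 4 h and first 18 h mice.

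Of 25173 genes tested, 233 passed (0.926%), 159 higher at 4 h (0.632%) and 74 lower (0.294%). The groups of all 233 did not overlap, which holds for 38.9% of all genes tested. The median size among them was 1.03 on the log2 scale, 1.24 for those higher at 4 h and 0.819 in the other direction, and 122 differed more than 2-fold. A gene symbol was available for 133 of the 233, and 15 were above background on no array of one of the groups. The median difference of all genes was 0.0362, and 690 of them differed more than 2-fold.

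The count rests on the spread shared by all 31 arrays and on each mouse. Without the first or second 4 h mouse it was 145 or 186, and without the first or second 18 h mouse 39 or 94. With neither array low in cerebellar transcripts, 22 genes passed, 16 of them among the 233. That refit has 1 array a group, assumed to vary like the other groups, and the median size of the 233 differences was 1.03 in it, as with all 4 arrays. The 4 arrays alone gave 0 genes (2174 at an unadjusted p under 0.05). Of the 233 calls 68.2% were higher at 4 h. That share was 66.9% of 178 with quantile normalization and 65.3% of 193 in the authors' value table, but 78.4% of 125 after normexp background correction and 82.5% of 63 when arrays were scaled to their medians. All 233 genes kept the sign of their difference in each of these refits. Leaving out mice could not turn a sign, because the groups of all 233 did not overlap. The fit of the 4 arrays leaves every difference unchanged. A sign could turn only with other scaling, background correction or the authors' value table.

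**Figure D1:**
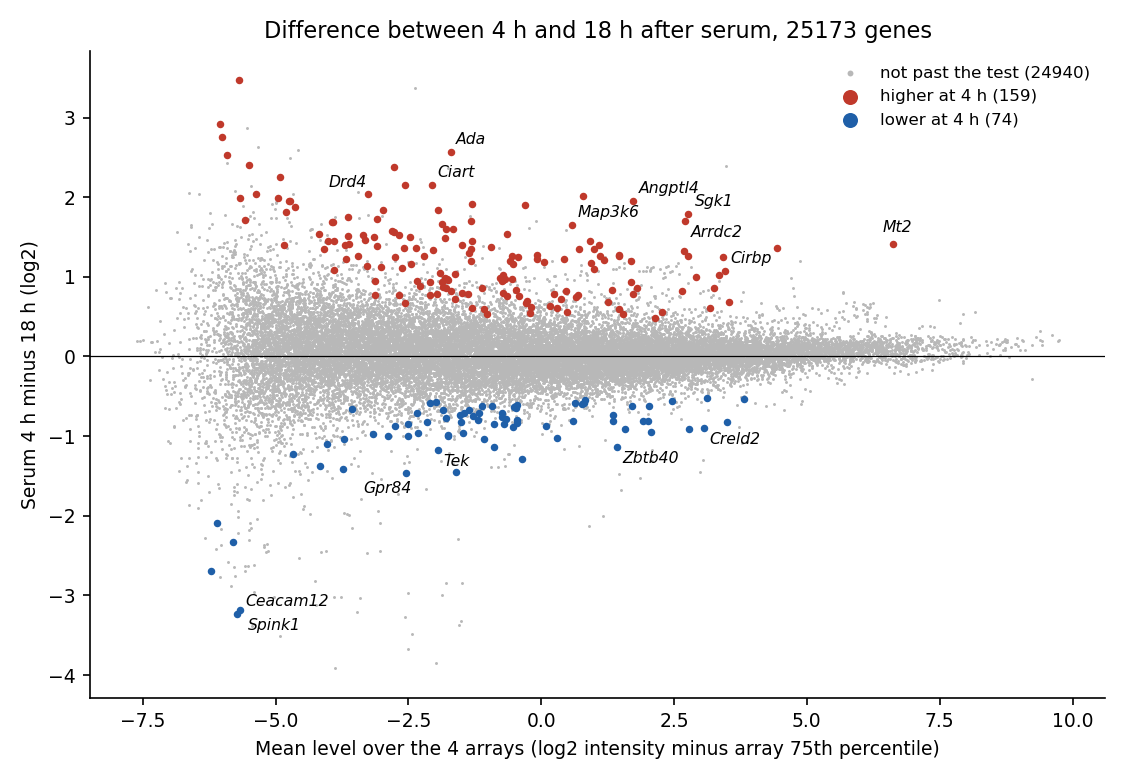
Difference between 4 h and 18 h after serum (y axis, log2) against the mean level over the 4 arrays (x axis, log2 relative to the array's 75th percentile) for 25173 genes. Red and blue points are the 159 and 74 genes past the test, with named examples in italics; at low levels grey points spread widely, and Ceacam12 and Spink1 lie in that region.

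Among the 52 genes past the test that are named here, 9 kept an adjusted p under 0.05 whichever of the 4 mice was left out: Map3k6, Ciart, Drd4, Foxo3, Spdef, Cirbp, Mt2, Hmgb2 and Arrdc4. Another 7 lost the call in each of the 4 refits: Nfkbia, Manf, Ceacam12, Spink1, Msc, Nmbr and Ccl17. Leaving out 1 mouse moved 8 of the differences by more than 1.5 times, those of Arrdc2, Ada, Maff, Hif3a, Gpr84, Rab39, Klhl6 and Thbd. All 8 turned on the 2 mice killed at 4 h. Leaving out both mice low in cerebellar transcripts keeps 1 array a group. There Foxo3 differed by 1.16, Ciart by 1.81, Drd4 by 1.96, Hmgb2 by 1.02 and Arrdc4 by 1.03, each less than with all 4 arrays. Map3k6, Spdef, Cirbp and Mt2 differed by more, at 1.88, 1.84, 1.21 and 1.68.

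Most of the listed genes known to respond to glucocorticoids had higher levels at 4 h. Of 29 listed genes, all measured, 26 were higher and 3 lower, 7 passed the test in the higher direction and 0 in the other, and their median difference was 0.68. The first 4 h mouse weighs heavily in that median, which was 0.319 without it and 1.15 without the second. The list and its members were assembled with earlier results of these arrays known. Beside this list and those below stand the values over all 25173 genes tested. Of these, 14084 were higher at 4 h and 11089 lower, and 0.632% passed as higher and 0.294% as lower.

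Promoter sequences from RefSeq (build GRCm38.p6) hold, in some of these genes, elements that their groups are known for. They are printed 5′ to 3′ on the gene's strand, with the motif in capitals, for 5 of the genes past the test, chosen because they hold it. The first carries the paired glucocorticoid receptor half-sites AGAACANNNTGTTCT, the second a kappa-B site, the third metal response element cores (TGCACNC or TGCGCNC), the fourth E-boxes (CACGTG) and the fifth the ERSE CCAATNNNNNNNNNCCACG.
Sgk1, chr10:21993681-21993735, plus strand: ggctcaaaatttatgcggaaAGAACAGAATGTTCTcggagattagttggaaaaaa
Nfkbia, chr12:55492648-55492696, minus strand: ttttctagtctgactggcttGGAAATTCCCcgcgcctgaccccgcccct
Mt2, chr8:94172375-94172594, plus strand: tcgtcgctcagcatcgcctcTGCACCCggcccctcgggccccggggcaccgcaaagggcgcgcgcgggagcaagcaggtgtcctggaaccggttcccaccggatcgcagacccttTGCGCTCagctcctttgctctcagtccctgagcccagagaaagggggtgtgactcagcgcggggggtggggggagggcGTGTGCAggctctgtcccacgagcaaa
Ciart, chr3:95882247-95882364, minus strand: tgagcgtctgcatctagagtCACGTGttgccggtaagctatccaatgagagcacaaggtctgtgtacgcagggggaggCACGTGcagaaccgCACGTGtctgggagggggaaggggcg
Creld2, chr15:88819500-88819558, plus strand: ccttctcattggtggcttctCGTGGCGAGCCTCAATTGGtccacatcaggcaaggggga

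Searching both strands of the 250 bases before each start, the paired glucocorticoid half-sites were found in 3 of 32851 RefSeq windows (0.00913%), 1 of them the Sgk1 window printed above. That was 1 of the 40 windows of the glucocorticoid list (2.5%). The single half-site AGAACA was present in 10 of 40 windows of that list (25%) and in 16.1% of all windows. Kappa-B sites were present in 2 of 15 windows of the inflammatory list (13.3%) and in 0.28% of all windows. Each match describes the letters of these windows only.

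Map3k6, a kinase of the stress-activated MAP kinase cascade, had the smallest adjusted p among genes with a symbol. Its level was 1.52 and 1.31 at 4 h and -0.12 and -0.36 at 18 h (chr4:132808672-132808731, mm9, the position of its probe in the array annotation). Both 4 h mice lay far above both 18 h mice, and the difference was 1.65 ± 0.17 (SE, adjusted p = 4.77e-05, a 3.15-fold higher level). Over all serum mice its group means were -0.09, -0.03, 0.53, 1.41, -0.24 and -0.24 at 1, 1.5, 3, 4, 18 and 24 h, so that 4 h was the high point.

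Sgk1, the serum- and glucocorticoid-regulated kinase, was 4.04 and 3.28 at 4 h and 1.83 and 1.91 at 18 h. The difference of 1.79 ± 0.41 was past the test (adjusted p = 0.0362), with the first 4 h mouse the highest. It was not past it without that mouse (1.41, adjusted p = 0.255), nor without either of the 18 h mice. Unlike Map3k6, Sgk1 had already reached 2.58 and 3.12 at 1 and 1.5 h, and the 18 and 24 h groups were the low ones at 1.87 and 1.81.

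The other passing members have separate roles. Arrdc2, an arrestin-domain protein, was 4.18 and 2.96 at 4 h against 1.98 and 1.75. Nfkbia encodes the inhibitor of NF-kappa-B and was 4.13 and 3.94 against 3.02 and 2.57. The transcription factors Cebpd and Klf9 differed by 1.27 ± 0.29 and 0.86 ± 0.15, with the 4 Klf9 levels at 3.75, 3.62, 2.94 and 2.71. Pdk4, the kinase that restrains pyruvate entry into mitochondrial oxidation, differed by 0.98 ± 0.20. Adjusted p for these 5 genes ran from 0.00701 for Klf9 to 0.0327 for Cebpd. Their groups did not overlap, as also held for 20 of the 29 listed genes and for 38.9% of all genes tested.

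Several classical targets were not past the test. Fkbp5 was 2.65 and 1.26 at 4 h against 0.84 and 0.89 (1.09 ± 0.31, adjusted p = 0.105), and Tsc22d3, a leucine-zipper mediator of glucocorticoid action, was 4.37 and 3.26 against 2.72 and 3.01 (0.95 ± 0.29, adjusted p = 0.143). For both, the first 4 h mouse was more than 1 log2 unit above the second, and the second lay just above the 18 h pair. The lipid-droplet gene Plin4 showed the widest gap, 2.46 and -1.29 against -1.26 and -0.80, and its groups overlapped. Cdkn1a, Ddit4 and Zbtb16 differed by 1.22, 1.204 and 1.099 (adjusted p = 0.0873, 0.147 and 0.19).

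**Figure D2:**
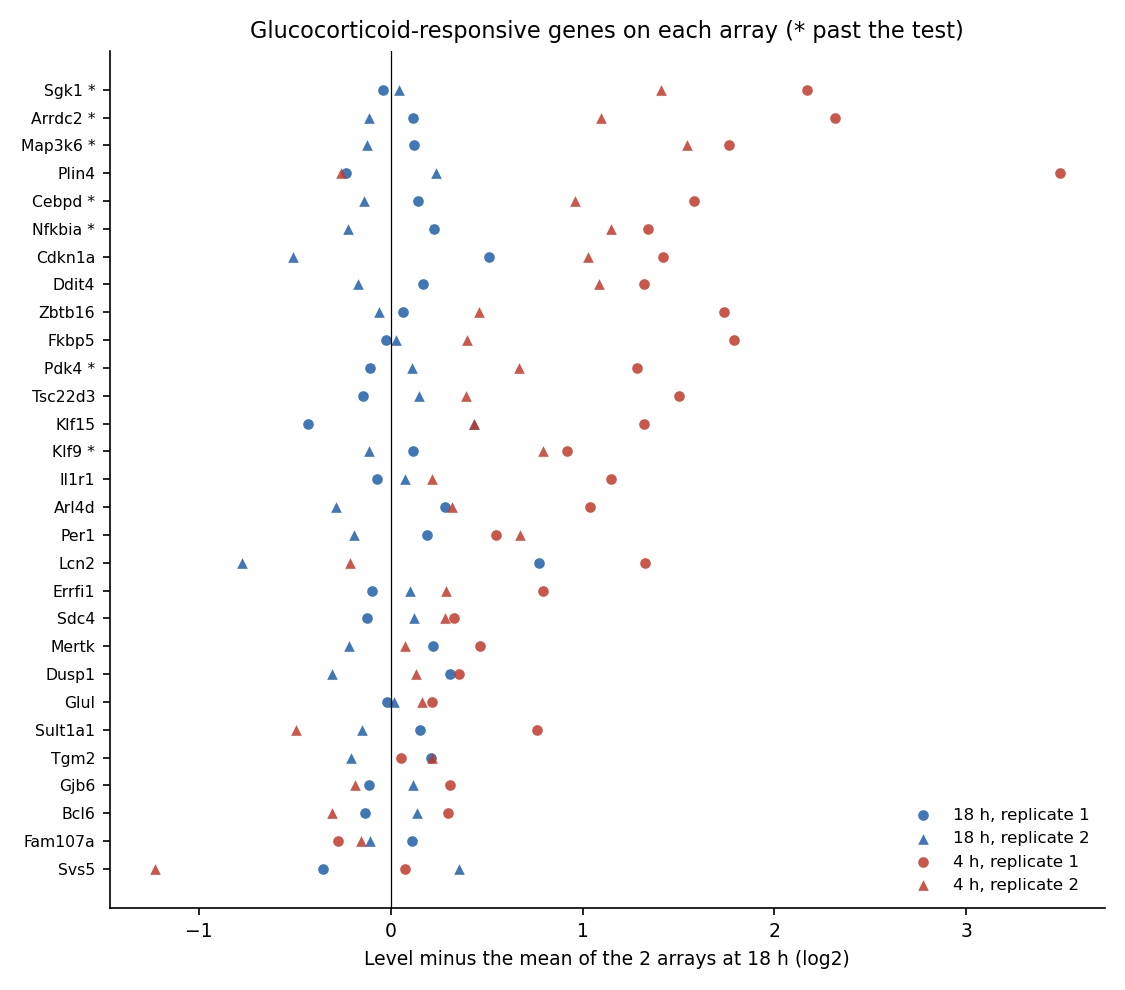
Level of each of the 29 glucocorticoid-responsive genes on the 4 arrays (x axis, log2, relative to the mean of the 18 h pair); red marks 4 h and blue 18 h, circles replicate 1 and triangles replicate 2, and asterisks genes past the test. The red circles lie to the right of the red triangles for most genes, and the 7 marked genes have both red symbols to the right of both blue ones.

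Of 14 clock output genes, 10 were higher at 4 h and 2 passed, both higher, with a median of 0.26 that was 0.164 without the second 4 h mouse. Of 15 core clock genes 8 were higher, 7 lower and 0 passed the limma test (5 had an unadjusted p under 0.05, as had 5 of the outputs). The lists were not tested against each other. Ciart, a repressor that inhibits CLOCK and BMAL1, was -1.16 and -0.80 at 4 h and -3.30 and -2.97 at 18 h. The difference was 2.15 ± 0.29 (adjusted p = 0.000866), and the group means of Ciart over the 6 serum times were -2.27, -1.99, -0.75, -0.98, -3.13 and -3.39. The 3 and 4 h mice were thus the high ones and the 18 and 24 h mice the low ones.

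Usp2, a deubiquitinase under clock control, was 3.02 and 3.08 at 4 h and 2.15 and 2.32 at 18 h (0.82 ± 0.15, adjusted p = 0.00852). Of the core genes, Nr1d1 was 0.96 and 2.53 against 0.66 and 0.30 (1.27 ± 0.49, adjusted p = 0.297). Per1, Per3 and the output factor Dbp had positive differences of 0.61, 0.75 and 0.86 (adjusted p = 0.384, 0.331 and 0.119). Those of Per2, Arntl and Cry1 were negative at -0.81, -0.58 and -1.02 (adjusted p = 0.215, 0.123 and 0.527), and Cry1 was above background on only 1 of the 4 arrays. Signs were thus mixed, and of the genes named in these sentences Usp2 alone passed.

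E-boxes were present in 6 of 14 windows of the clock output list (42.9%), in 2 of 20 of the core list (10%) and in 6.02% of all windows. The Ciart window printed above holds 3 of them, at -116 to -111, -58 to -53 and -44 to -39 relative to the start.

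Cirbp, the cold-inducible RNA-binding protein, was 4.17 and 3.83 at 4 h and 2.90 and 2.96 at 18 h. It was past the test at 1.07 ± 0.14 (adjusted p = 0.000468), and at 24 h the serum mice were again low at 2.94. Rbm3, a second cold-inducible RNA-binding protein, had positive but smaller values (0.50 ± 0.17, adjusted p = 0.212), and its 3 probes ranged from -0.62 to 0.50. Of 20 measured cytosolic heat-shock genes, 18 had lower levels at 4 h, 1 passed in that direction and 0 in the other, with a median of -0.26. That 1 was the HSP90 co-chaperone Chordc1, at 1.38 and 1.81 against 2.58 and 2.24 (-0.81 ± 0.15, adjusted p = 0.00727). Hspa1a, the inducible HSP70, was -0.59 and -0.19 against 0.43 and 0.07 (adjusted p = 0.182), and Hspb1 differed by -0.79 (adjusted p = 0.239). Without the first 4 h mouse the median of the heat-shock list was -0.0778, with 13 of 20 lower, and without the first 18 h mouse -0.149, and in oleic acid mice 10 of 20 were lower. The paired heat-shock half-sites GAANNTTC were present in 6 of 24 windows of the list (25%) and in 6.69% of all windows.

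Most of the listed chaperones and folding factors of the ER had lower levels at 4 h, though few passed singly. Of 22 listed genes, 19 had lower levels, 2 passed in that direction and 0 in the other, and the median was -0.28, against 0.0362 over all genes. It stayed between -0.308 and -0.247 whichever mouse was left out. Creld2, an ER-resident folding factor, was 2.53 and 2.72 at 4 h and 3.55 and 3.50 at 18 h, and the secreted ER protein Manf was 1.06 and 1.18 against 2.02 and 2.04. The mice of each time lay close together, and the differences were -0.90 ± 0.16 (adjusted p = 0.00631) and -0.91 ± 0.19 (adjusted p = 0.0193).

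Over the serum times Creld2 ran 2.69, 2.71, 2.26, 2.62, 3.52 and 3.01, which makes 18 h the high group. Sdf2l1, a partner of the chaperone BiP, had the most negative difference of the list but missed the threshold (-1.12, adjusted p = 0.0573). BiP itself (Hspa5), Xbp1, Pdia4 and Pdia6 differed by -0.60, -0.62, -0.72 and -0.68 (adjusted p = 0.218, 0.136, 0.472 and 0.191). In oleic acid mice 13 of the 22 were lower, 0 passed and the median was -0.195.

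ERSE letters occurred in 8 of 20 windows of this list (40%) and in 37 of 32851 windows in all (0.113%). The 8 genes were Calr, Creld2, Dnajc3, Ero1b, Hsp90b1, Hspa5, Pdia6 and Syvn1. In Creld2 the element lies on the opposite strand at -126 to -108 from the start, and in Hspa5 on the gene's own strand at -65 to -47. The Manf window did not hold these letters.

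Mt2, a metallothionein that binds zinc and copper, was 7.64 and 7.04 at 4 h and 5.88 and 5.95 at 18 h, a difference of 1.42 ± 0.22 (adjusted p = 0.00227). Its neighbour Mt1 was 7.91 and 7.78 against 7.22 and 7.06 (0.70 ± 0.18, adjusted p = 0.0691), and since the pair are alike in sequence, how far each probe reads the other was not tested. Slc39a10, a zinc importer, was lower at 4 h, at 1.83 and 1.35 against 2.63 and 2.44 (-0.94 ± 0.18, adjusted p = 0.0106). These were the 2 calls, 1 in each direction, among 6 metal-response genes, whose median was 0.17, or -0.0313 without the second 4 h mouse. Metal response cores were found in 3 of 7 windows of these genes (42.9%) and in 21.4% of all windows.

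**Figure D3:**
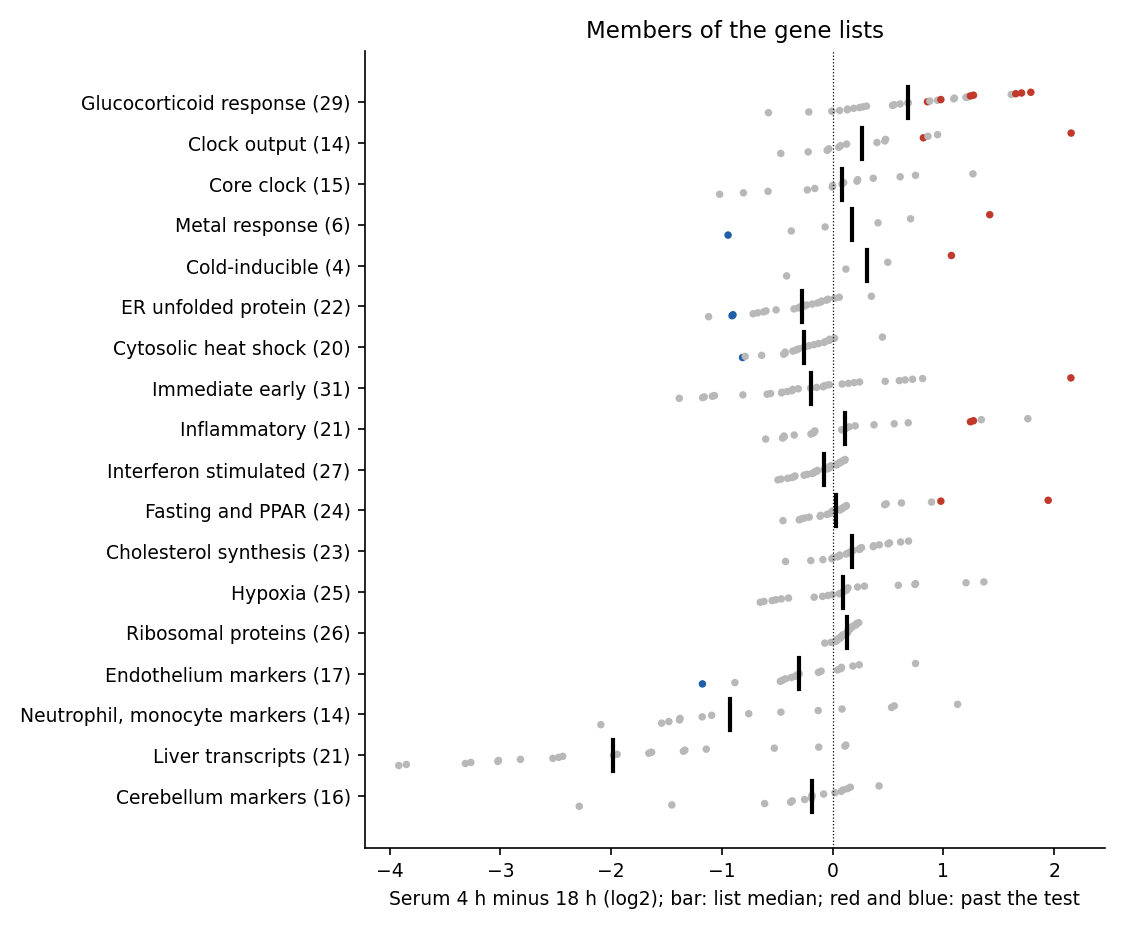
Difference between 4 h and 18 h (x axis, log2) of each measured member of 18 gene lists, with the number of members in parentheses; black bars are medians, red points higher and blue points lower at 4 h past the test. The glucocorticoid list lies furthest to the right with a median of 0.68, and the liver list furthest to the left at -1.98 with no coloured point.

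The largest rise among named genes was that of Ada, adenosine deaminase, which converts adenosine to inosine. Its level was 0.45 and -1.29 at 4 h and -2.97 and -3.00 at 18 h, so the 4 h mice differed from each other by more than 1 log2 unit but both lay above the 18 h mice. The difference was 2.56 ± 0.41 (adjusted p = 0.00315), between 1.69 and 3.43 when 1 of the 4 h mice was left out. Pnp, the next enzyme of purine breakdown, went the other way: 1.64 and 1.78 against 2.45 and 2.22 (-0.62 ± 0.11, adjusted p = 0.00769; Pnp was chosen after its values were seen).

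Angptl4, which inhibits lipoprotein lipase, was 3.14 and 2.28 at 4 h and 1.03 and 0.50 at 18 h (1.95 ± 0.35, adjusted p = 0.007). Together with Pdk4 it was 1 of the 2 that passed among 24 genes of fasting and PPAR response, of which 12 were higher and 12 lower, both of these included (median 0.03, or -0.00258 without the first 4 h mouse). Group means of Angptl4 over the serum times were 0.28, 0.55, 1.24, 2.71, 0.76 and 0.25. The 4 h mice were the high ones and all other times lay at least 1 log2 unit below.

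Maff, a small Maf transcription factor, was -2.23 and -0.73 at 4 h against -3.58 and -3.69 (2.15 ± 0.40, adjusted p = 0.00834). Maff was the only 1 of 31 immediate-early genes past the test. In that list 21 members had lower levels at 4 h and the median was -0.20. It was -0.018 and -0.423 without the first and second 4 h mouse, and -0.0209 and -0.612 without the first and second 18 h mouse. Neuronal activity genes had negative differences that did not pass: Egr1 -1.09, Npas4 -1.17, Arc -1.07, Fos -0.81 and Nr4a1 -0.56 (adjusted p = 0.119, 0.0862, 0.574, 0.45 and 0.758). Without the first 18 h mouse these differences were -0.902, -0.931, -0.0558, -0.479 and -0.0906. The groups of Arc overlapped, at 3.54 and 3.16 against 5.43 and 3.41.

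Apold1, an endothelial early-response gene, differed by 1.91 ± 0.32, Foxo3, a forkhead transcription factor, by 1.84 ± 0.26, and Hif3a, a hypoxia-inducible factor subunit, by 1.90 ± 0.40. The brightest probe was used for each, and the second probe of Foxo3 gave 0.47 and that of Hif3a 0.95. The dopamine receptor Drd4 was -2.04 and -2.42 against -4.55 and -4.00, and the ETS factor Spdef -0.44 and -0.48 against -2.04 and -2.29. The tight-junction gene Cldn20 and Mospd4 had differences of 1.69 and 1.88, both above background on only 1 of the 18 h arrays. Pla2g4d, a cytosolic phospholipase A2, was above background in both 4 h mice and neither 18 h mouse, at least 1.75-fold higher, with measured means 2.53 apart. Its paralogue Pla2g4e was -0.52 and -0.93 against -2.06 and -1.79 (1.199 ± 0.199, adjusted p = 0.00384).

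Some further genes past the test were chosen after their values were seen. Arrdc4, an arrestin-domain paralogue of Arrdc2, differed by 1.26 ± 0.20, and Hmgb2, a chromatin protein, was 0.31 and 0.74 against -0.68 and -0.72. The chemokines Ccl17 and Ccl19 were 0.17 and 0.23 against -0.85 and -1.27, and 0.02 and 0.06 against -1.16 and -1.08. Inflammatory genes as a list did not share a direction: 12 of 21 were higher, 2 passed (Nfkbia and Cebpd, both also on the glucocorticoid list) and the median was 0.11, between -0.207 without the second 4 h mouse and 0.34 without the first. Ccl2 was -1.58 in the second 4 h mouse and between -4.43 and -4.34 in the other 3 mice, and did not pass. Of 27 interferon-stimulated genes 0 passed, with 1 at an unadjusted p under 0.05.

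Genes lower at 4 h included vascular and immune receptors. Tek, the angiopoietin receptor of endothelium, was -2.90 and -2.17 at 4 h and -1.21 and -1.52 at 18 h (-1.18 ± 0.25, adjusted p = 0.0178). Thbd, thrombomodulin on the vessel wall, was -0.81 and 0.38 against 0.90 and 0.72 (-1.02 ± 0.23, adjusted p = 0.0329), and the chemokine Cxcl12, chosen after its values were seen, differed by -0.91 ± 0.19. Thbd moved to -0.428 (adjusted p = 0.402) without the first 4 h mouse. Of the 17 endothelial markers 11 were lower, Tek alone passed and the median was -0.30, which became -0.00304 without the first 4 h mouse and -0.173 without either 18 h mouse.

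Gpr84, a fatty-acid receptor of myeloid cells, was -3.78 and -2.80 against -1.54 and -2.10 (-1.47 ± 0.32, adjusted p = 0.0226). Klhl6 differed by -1.10 ± 0.23. Beside them, of 18 microglial markers 14 were lower with 0 past the test and a median of -0.11. That direction turned without the first 4 h mouse (13 of 18 higher, median 0.134) and without the first 18 h mouse (13 of 18, 0.127). Of 14 neutrophil and monocyte markers 10 were lower with 0 past it and a median of -0.93: their mean level was -2.40 and -1.77 at 4 h against -1.11 and -1.75 at 18 h. The median was -0.39 without the first 4 h mouse and -0.488 without the first 18 h mouse. S100a8 was -2.11 and -0.65 against 0.57 and -0.57, and Ltf -4.74 and -3.42 against -1.42 and -2.56.

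Transcription factors lower at 4 h were Mycn (-1.14 ± 0.23), Zbtb40 (-1.14 ± 0.21), Msc (-1.04 ± 0.22) and, chosen after their values were seen, Sox2 (-0.88 ± 0.20) and Sox21 (-0.98 ± 0.18), both of neural progenitors and glia. Sox21 was -2.31 and -2.18 against -1.26 and -1.26. The neuromedin B receptor Nmbr and the cystine transporter Slc7a11 differed by -1.005 ± 0.24 and -0.78 ± 0.17. Noxred1, Crip3, Rab39 and Mindy4, the other named genes by size, lay between -1.45 and -1.22. Rab39 and Mindy4 were above background on 1 of the 4 h arrays.

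Ceacam12 and Spink1 passed the test, and neither was above background at 4 h. Ceacam12 was -7.28 and -7.41 against -4.11 and -4.10, at least 2.53-fold lower at 4 h, and Spink1 -7.22 and -7.29 against -4.01 and -4.13, at least 2.59-fold lower. The measured means were 3.24 and 3.19 apart. In oleic acid mice neither passed and both had the opposite sign (0.81 and 1.01). Ceacam12 was close to -4.11 only in the 18 h serum pair, and the means of its other groups ran from -8.02 to -6.55. Probes entered when at least 1 group had them above background in all its arrays. Ceacam12 may thus have entered through the 18 h pair alone, so neither its call nor its interaction p is free of that filter.

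Oleic acid mice give the same hours in other animals, with 3 arrays at 4 h and 2 at 18 h. In them 402 genes passed (1.6%), 340 higher at 4 h (1.35%) and 62 lower (0.246%). Of the 233 genes, 224 had the same sign (96.1%, against 61.6% of all genes tested), 111 passed in the same direction and 0 in the opposite one. The 111 are 47.6% of the serum calls and 27.6% of the oleic acid calls. Map3k6 differed by 1.91, Ada by 2.56, Ciart by 1.59, Cirbp by 0.84 and Mt2 by 1.103 there, all past the test. Of the glucocorticoid list 28 of 29 were higher, 9 passed and the median was 0.62. The clock output list kept its serum direction (10 of 14 higher), as did the ER list (13 of 22 lower). Several other lists leaned the opposite way from serum mice. Higher at 4 h were 18 of 31 immediate-early genes, 22 of 27 interferon-stimulated genes, 14 of 18 microglial and 9 of 17 endothelial markers. So were 8 of 14 neutrophil and monocyte markers and 14 of 21 liver genes, while 11 of 16 choroid plexus markers were lower. In that comparison the 4 h arrays lie on 1 slide and the 18 h arrays on another, so time and slide cannot be told apart.

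The change from 18 to 4 h was not shown to differ between treatments: 0 genes passed limma's interaction test, with 1039 at an unadjusted p under 0.05, and 1 passed after quantile normalization. The smallest unadjusted interaction p values were those of Ceacam12 and Spink1 (0.000111 and 0.00012, both adjusted p = 0.602).

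**Figure D4:**
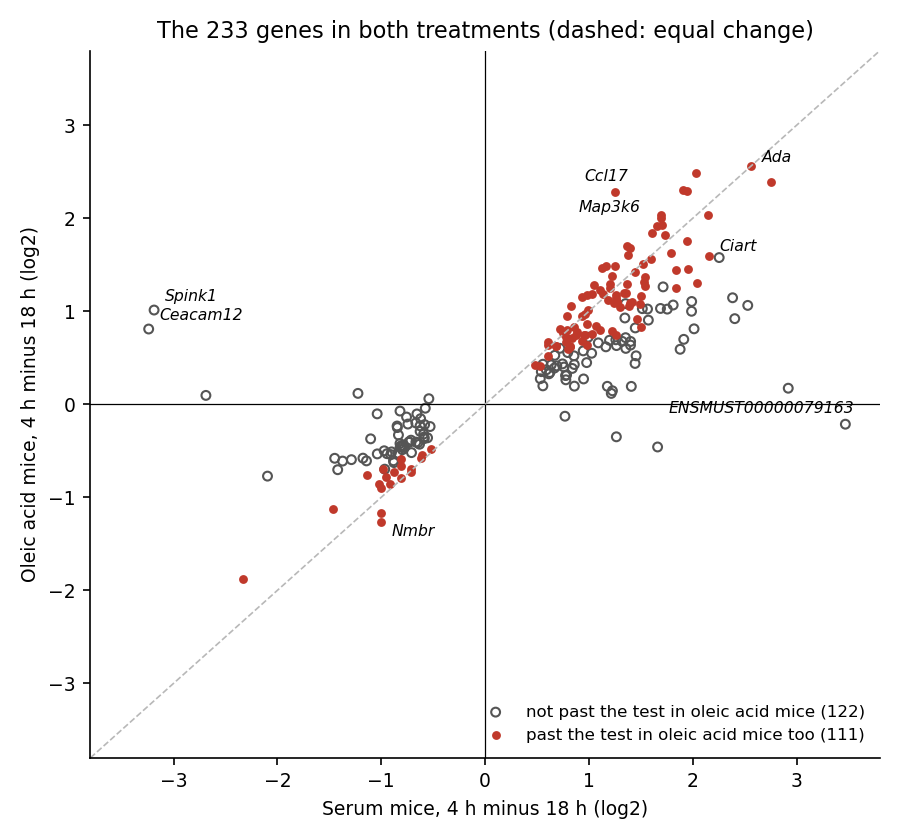
Difference between 4 h and 18 h in serum mice (x axis, log2) and in oleic acid mice (y axis, log2) for the 233 genes past the test in serum mice. Red points (111) also passed in oleic acid mice and open circles (122) did not; the dashed line marks equal change, and 224 points lie in the 2 quadrants of equal sign.

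Serum mice killed at 3 and 24 h, on other slides, give another pair of early and late groups with no array in common. The 3 h arrays share no slide with the 24 h arrays, so time and slide cannot be told apart here either. The pituitary gene Gh was 6.43 in the second 24 h mouse and -6.08 in the first, and its part was not tested. Between 3 and 24 h, 242 genes passed (0.961%). Of the 233 genes 225 had the same sign (96.6%, against 59.1% of all genes) and 70 passed in the same direction. Not all took part: Drd4, Mt2, Ccl19 and Sox2 differed by 0.25, 0.38, 0.20 and -0.03 between 3 and 24 h, and Hmgb2 and Ciart by 1.53 and 2.64. Both contrasts share the estimate of spread from the 31 arrays.

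Across the 6 serum times, the 159 genes higher at 4 h stood a median of 0.481, 0.496, 0.941 and 0.208 above their 18 h mean at 1, 1.5, 3 and 24 h. The highest group mean was at 4 h for 102 of them and at 3 h for 52. The 74 lower genes stood at -0.506, -0.491, -0.821 and -0.373, with the lowest mean at 3 h for 37 and at 4 h for 34. At 1 h, 70 of the 159 and 45 of the 74 lay on the 4 h side of the midpoint between 4 and 18 h, and at 3 h 121 and 66. Among all 25173 genes tested it was 13237 at 1 h and 14121 at 3 h. The 70 of 159 at 1 h was a smaller share than that of all genes, and the 45 of 74 a larger one. These shares are not like for like, because the called genes were chosen by the gap that sets their midpoint. No conclusion is drawn from the contrast. The genes were chosen for their 4 h and 18 h values, which fixes that these groups lie apart. That choice also favours an extreme group mean at 4 h, and medians on the 4 h side of the 18 h mean at the other times. Levels at those other times entered only through the choice of probes and the shared spread.

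**Figure D5:**
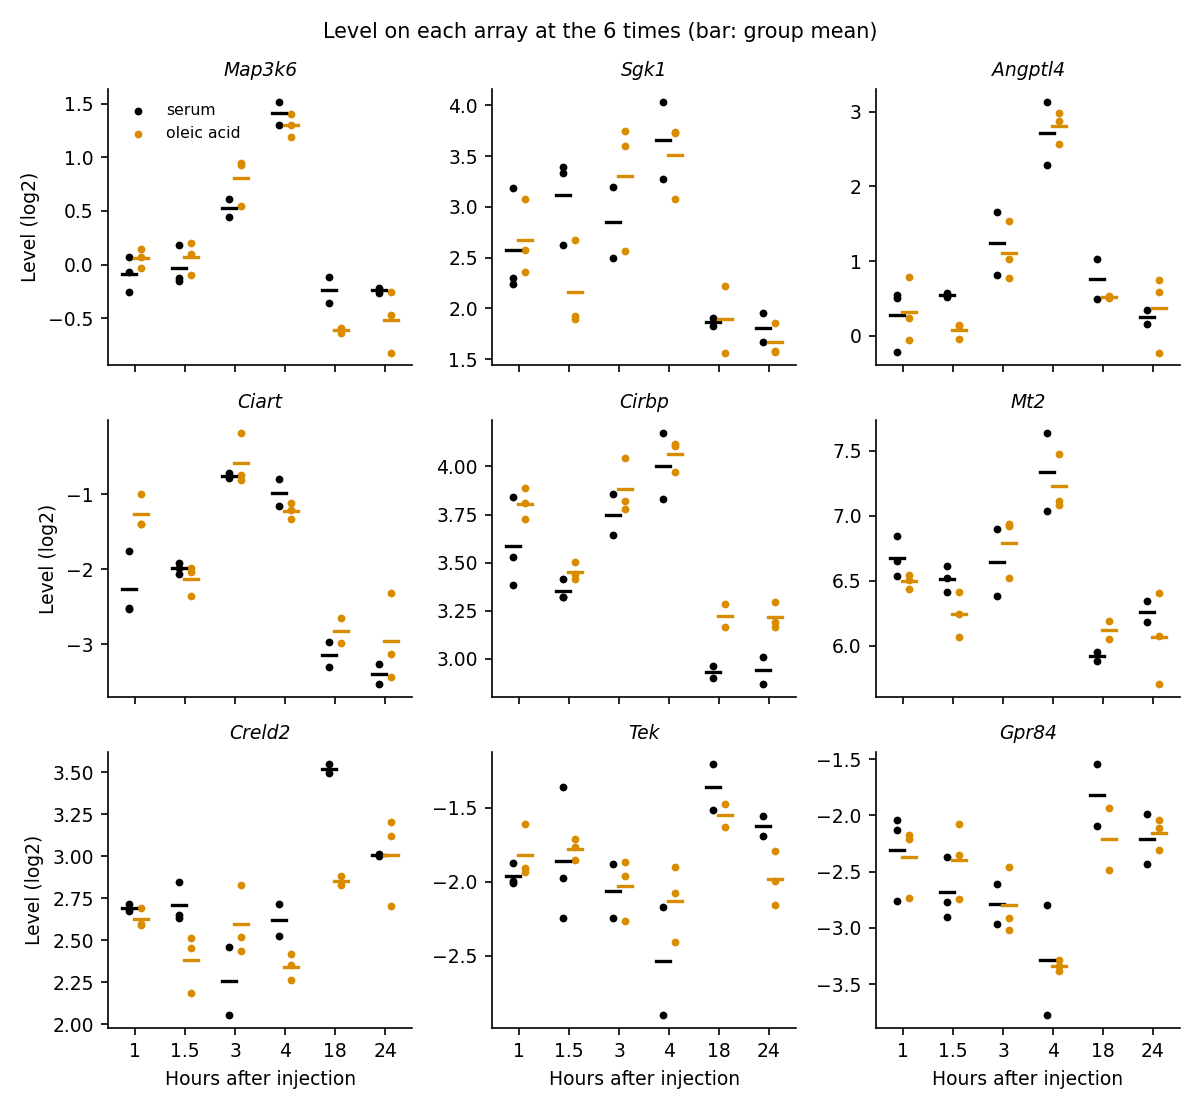
Level (y axis, log2 relative to the array's 75th percentile) of 9 genes on each array at the 6 times after injection (x axis, hours, evenly spaced); black points are serum mice, orange points oleic acid mice and bars group means. Map3k6, Angptl4, Cirbp and Mt2 are highest at 4 h in serum mice, Ciart at 3 and 4 h, and Creld2 stands highest in the 18 h serum pair.

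All 4 arrays of the comparison were on 1 slide, the 4 h arrays in its first row and the 18 h arrays in its second, so row and time cannot be told apart among them. Oleic acid 4 h mice lay in both rows of that slide, 1 in the first and 2 in the second. Between these rows the 159 higher genes differed by a median of -0.0516 (first minus second) and the 74 lower genes by 0.0501. The second-row mean was on the 4 h side of the serum midpoint for 157 of the 159 and 71 of the 74.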

How the data were processed

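Agilent Feature Extraction 10.5.1.1 made the deposited array files, per the file headers and the submitters' processing notes. They hold Cy3 intensity for 62976 spots: mean, local background and processed intensity, the last after background subtraction and not normalized between arrays, plus flags of 0 or 1. The authors' value table holds log2 values: its columns correlated at 0.9977 to 0.9998 with the log2 mean intensity and had medians of 6.345 to 6.351; what else was done is not given in the sources used here. Array positions are on mm9 (NCBI build 37).

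Processed intensities were log2-transformed and the 75th percentile of each array's 59305 non-control spots was subtracted. Non-uniform spots were set to missing, repeated spots averaged, and a probe entered when at least 1 of the 12 groups had it well above background in all its arrays and none of the 31 arrays lacked a value (35499 of 55681 probes). The brightest probe stood for each gene. Symbols were updated through RefSeq for 26582 probes by accession and 3094 by symbol, and 26005 kept the array's name. The RefSeq tables are of GRCm38.p6 and gave names and promoters only; of the 29, 22, 20, 15, 14 and 6 measured genes of the glucocorticoid, ER, heat-shock, core clock, clock output and metal lists, 26, 20, 16, 12, 11 and 6 matched a promoter.

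A model of 12 group means over 31 arrays (19 residual degrees of freedom) was fitted with limma 3.58.1 in R 4.3.3, with eBayes and Benjamini-Hochberg adjustment; the code was tested on simulated data. Number of arrays and signal over background limit precision: the 75th percentile of processed intensity was 535 and 561 at 4 h and 552 and 598 at 18 h. "At least" folds divide the bright group's mean by the dim group's mean of the lowest signal well above background or the probe's own if higher.

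Named genes are the 15 largest rises and 15 largest falls with a gene symbol, past the test and with groups that do not overlap; up to 6 passing members of each of 36 lists; a panel of 45 genes; and 5 for the interaction. Further names are marked in the text, and some results are not reported here. Groups were taken from the labels. The samples, members and lists were chosen with earlier results of these data known. Alternatives covered background correction, scaling, filters, probe choice, the arrays in the fit, slide and replicate blocks, weights and single mice left out; leaving out both mice low in cerebellar transcripts, the crossed replicate block, keeping probes with missing spots and filtering on the 2 groups only were added after the data were seen.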

Additional observations from a re-analysis of the deposited data

How the results depend on the processing

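The serum count of 233 was 125 after normexp background correction, 63 with arrays scaled to their medians, 105 in the fit of the 14 serum arrays and 4 when differences were tested against 1.5-fold; it ranged from 39 to 186 with 1 mouse left out, and was 22 without both mice low in cerebellar transcripts. Fits with few residual degrees of freedom gave 1 gene (8 arrays of the slide) and 0 genes (the 4 arrays). The replicate block over the 4 arrays gave 0 genes (1274 at an unadjusted p under 0.05), and so did the crossed block (3632), chosen after seeing the data. Deviations of same-numbered mice correlated at -0.44 over genes, and the labels do not pair them. The oleic acid count fell from 402 to 68 with median scaling, and the interaction count of 0 became 1 with quantile normalization. Except where arrays were removed, the cause was not tested.

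Quantile normalization, the authors' value table, dim probes kept, probes above background on all 4 arrays, averaged probes, slide as a fixed or random block, array weights (whose fit did not converge), trend and robust options, kept missing spots and the 2-group filter gave between 159 and 282 genes. The 233 kept their sign in every refit that measured them, except 1 gene when probes were averaged. Refits that only left out mice could not turn a sign, because the groups of all 233 did not overlap. Of the 233, 208 were measured with probes above background on all 4 arrays and 230 with the 2-group filter. With quantile normalization and the authors' table, 71.2% and 70.7% of the oleic acid calls were higher at 4 h, against 84.6%.

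Without both mice low in cerebellar transcripts, Arc was 0.132 and Ccl2 -0.077, opposite to their main sign. With 1 mouse left out Plin4 ranged from -0.262 to 3.49 and Ccl2 from -0.0825 to 2.77. Over the 24 refits the median of the glucocorticoid list lay between 0.319 and 1.15 and that of the ER list between -0.346 and -0.244, while core clock, metal response, inflammatory, fasting and microglial lists changed sign in 2, 1, 3, 2 and 2 of them. With 2 mice a group, single arrays decide most calls.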

Other observations

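Some called genes lay side by side. Within 50000 bases of one another on mm9, 24 of the 233 formed 10 groups, and all 10 went in a single direction. How often all genes tested lie that close, or share a direction when they do, was not counted. These counts therefore have no background beside them. In some groups the probes lie at 1 locus. Those of AB041803 and of an unnamed transcript overlap on the minus strand of chromosome 6, and differed by 1.4 and 1.44. Ctla2a and Ctla2b, neighbouring cysteine protease inhibitors on chromosome 13, were 1.46 and 2.01 against 0.86 and 0.09, and 0.51 and 0.79 against -0.20 and -0.88; the pair are similar enough in sequence that shared signal was not tested. Beside Hmgb2 on chromosome 8 (probe at chr8:59992929-59992988), an unnamed transcript on the same strand (probe at chr8:59994598-59994657) differed by 1.99, and Hmgb2 by 1.22. Further along, 4 probes, the third that of Gm7349 and the rest of unnamed transcripts, between chr8:57978845-57978904 and chr8:57999026-57999085 differed by 1.35, 1.53, 0.99 and 1.30, all on the plus strand. Downstream of Sox2 (probe at chr3:34550773-34550832), a probe at chr3:34576423-34576482 differed by -0.73 and Sox2 by -0.88. Whether such probes read 1 transcript or several was not tested. These groupings were looked for after the values were seen.

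Cholesterol synthesis genes had higher levels at 4 h in 19 of 23 cases, ribosomal protein genes in 24 of 26 and respiratory chain genes in 23 of 26, with medians of 0.17, 0.13 and 0.11 and 0 past the limma test in each (4, 0 and 0 at an unadjusted p under 0.05). The median of all genes was 0.0362. With 1 mouse left out, those 3 medians ranged from 0.086 to 0.286, from 0.0306 to 0.215 and from 0.05 to 0.169, each lowest without the second 4 h mouse and highest without the first. Over all 24 refits the cholesterol range was the same, but the ribosomal and respiratory medians fell as low as 0.0219 and 0.0225. The median of all genes moved with scaling too, to -0.0344 when arrays were scaled to their medians. Choroid plexus markers were higher in 14 of 16 cases with a median of 0.17, and hypoxia genes in 15 of 25 with 0.09, or 0.00935 without the second 18 h mouse.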
